A study of Rattus norvegicus with 12 samples.

Results

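Rat epidermal keratinocytes given both betaine and ultraviolet B (UVB) were compared with untreated keratinocytes of the same line. The cells were REK, a rat keratinocyte line that stratifies into an epidermis-like tissue when lifted to the air on a collagen-coated insert, and they were grown with no feeder cells. The betaine + UVB group had 10 mM betaine, an organic osmolyte, in its medium for 11 days from day 4 until collection, and 30 mJ/cm2 of UVB at 24 h before collection. The control group had neither treatment, and all cultures were 2 weeks old when the epidermal layer was peeled off and frozen. Each group had 3 cultures, A, B and C, with 1 Illumina RatRef-12 BeadChip array per culture, so 6 of the 12 arrays of the series entered the comparison. The other 6, from cultures with 10 mM betaine alone or 30 mJ/cm2 UVB alone, served only to ask whether the joint change equals the sum of the single changes. The genes were those with a signal above background (a detection p-value below 0.05) on 3 or more of these 6 arrays, which left 10356 of the 21405 genes named on the array. The labels do not say whether cultures A, B and C of a group were separate experiments or passages of this 1 line, so p-values reflect no more than the spread among these samples, which may be technical.

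As background, UVB damages DNA in keratinocytes, which can arrest the cell cycle, repair the damage, die, or later re-enter the cycle, and it also switches on stress kinases, immediate early transcription factors and inflammatory mediators. In skin, UVB starts the synthesis of vitamin D, whose hormone form strongly induces the enzyme that degrades it. Betaine is a small solute that cells take up to balance osmotic pressure, and it also donates methyl groups in the methionine cycle. When a cell enters S phase, E2F transcription factors switch on the genes that license, start and run DNA replication, while a later wave of genes, many with CCAAT boxes and CHR elements near their start, serves mitosis.

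Signals are log2 values after background correction and quantile normalization, and a change is the betaine + UVB mean minus the control mean on that scale, with its standard error (SE) from limma and n = 3 arrays per group. Raw array medians of the 6 arrays ran from 95.9 to 113.0, and between 46.2 and 47.8 percent of probes were detected per array. Of 12 keratinocyte marker genes 11 were on the array, and all 11 were detected on all 6 arrays with 0 called changed. Of the 8 fibroblast markers on the array, 6 (Col1a1, Col1a2, Dcn, Lum, Pdgfra and Thy1) were detected on none of the 6, as were 3 of the 8 leukocyte markers (Ptprc, Itgam and Cd74), 3 of the 5 melanocyte markers (Tyr, Tyrp1 and Sox10) and all 4 endothelial markers. The other melanocyte markers, Pmel and Mlana, and the leukocyte markers Cd68, Cd3e, Aif1 and Cd52 were detected on at least 3 of the 6 arrays, with 0 of these 6 called changed. Control A and betaine + UVB C stood apart from their groups in the same direction. Their deviations from the group means correlated at 0.47 over all genes, and 31 genes of the upper epidermal layers averaged 11.52 on control A against 12.19 and 12.14 on the other controls, and 11.63 on betaine + UVB C against 12.05 and 11.95. Betaine C and UVB C deviated in a like way, correlating with control A at 0.39 and 0.36. They had the lowest means of their groups for these 31 genes, 12.01 and 11.91. Both stay in the departure fits that leave out control A and betaine + UVB C. Many, but not all, results that rest on control A and betaine + UVB C are also given without them.

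Joint treatment changed 650 genes at an adjusted p under 0.05 (limma, Benjamini-Hochberg over all genes), 6.28 percent of those tested. Of these 365 were higher (3.52 percent) and 285 lower (2.75 percent), and 90 changed at least 2-fold, 56 of them upward. Most changes were small: the median size among the 650 was 0.62 log2, and 276 were under 1.5-fold. The 6 arrays did not overlap between the groups in any of the 650, against 28.2 percent of all genes tested. Of the genes called higher 18 were undetected on all 3 control arrays, and of those called lower 16 were undetected on all 3 betaine + UVB arrays. Such genes, among them Cxcl10, Aadac and Pmaip1, passed the filter only because all 3 arrays of the other group detected them. The direction of their change was thus in effect set by the filter, and their share over all genes tested was not counted. The number called was 1207 without control A, between 235 and 389 without any other array, and 571 without both control A and betaine + UVB C, of which 384 were among the 650.

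**Figure D1:**
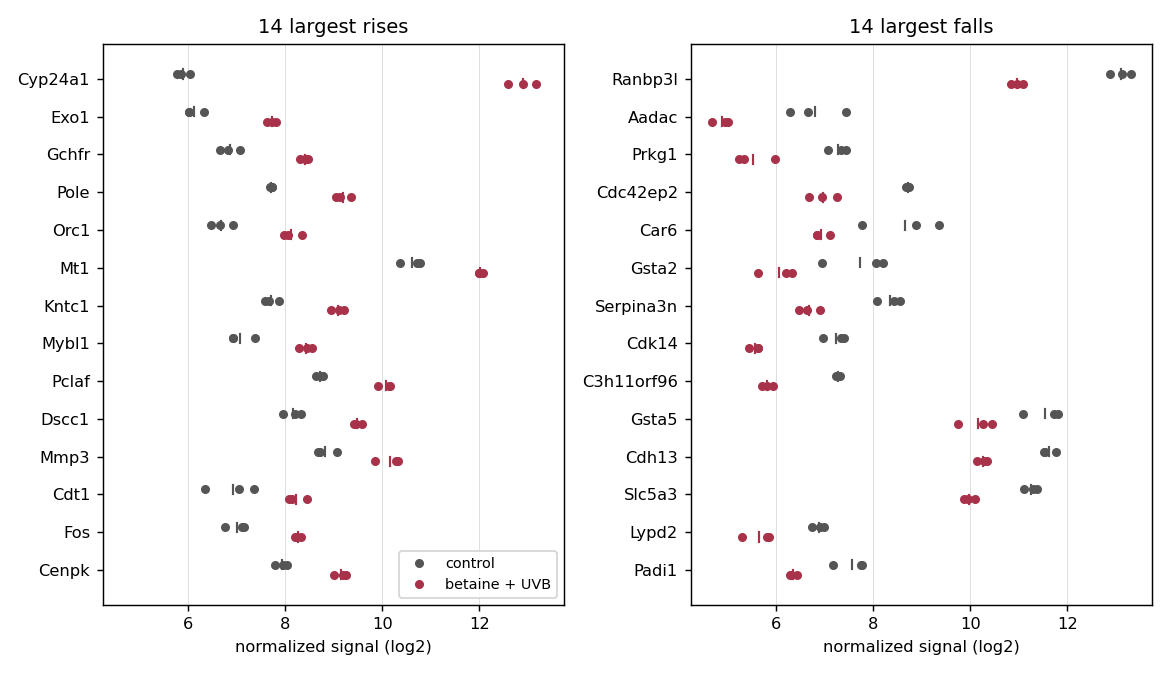
Normalized signal (log2, horizontal axis) of the 14 largest rises and the 14 largest falls among named genes on the 3 control arrays (grey) and the 3 betaine + UVB arrays (red), with the group mean as a short vertical line. Cyp24a1 lies far to the right of its controls, near 13 against near 6; the genes were chosen among those whose groups do not overlap.

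The largest change of all was in Cyp24a1, the vitamin D 24-hydroxylase that inactivates the vitamin D hormone. Its signal was 5.76, 6.03 and 5.85 on control arrays A, B and C and 13.18, 12.91 and 12.60 on the betaine + UVB arrays. The groups lay far apart. The gene was detected on all 3 control arrays, but close to their lowest detected signals of 5.59, 5.55 and 5.63. The size of the rise varied with the processing, from 4.84 to 7.16 log2 across the settings run. The rise was 7.02 ± 0.15 log2, or 129-fold (adjusted p = 7.1e-07), and with the authors' deposited log2 values it was 4.84. UVB alone gave 7.26 ± 0.15, while betaine alone, where Cyp24a1 was undetected on all 3 arrays, gave a fitted −0.76 ± 0.15. Of 8 vitamin D genes tested 2 rose, 25 percent called against 6.28 percent over all genes. The other was Thbd, thrombomodulin, a surface receptor of the clotting system and a known vitamin D target, which had 8.67, 8.67 and 8.65 in control and 9.36, 9.22 and 9.15 with both treatments (0.58 ± 0.09, adjusted p = 0.0091). The median of the list was −0.0044 against −0.0019 over all genes, and 3 of the 8 had an unadjusted p under 0.05.

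Among DNA replication genes, 35 of 40 tested rose and 0 fell, 87.5 percent called against 6.28 percent over all genes. The list median was 0.70 log2 against −0.0019 over all genes. The origin recognition subunit Orc1 had 6.92, 6.65 and 6.46 in control and 8.06, 8.35 and 7.98 with both treatments, a rise of 1.45 ± 0.14 (adjusted p = 0.0021). Pole, the catalytic subunit of the leading-strand polymerase epsilon, had 7.73, 7.68 and 7.72 in control and 9.14, 9.05 and 9.36 with both (1.47 ± 0.10, adjusted p = 0.00096). The 3 control values of each gene lay below all 3 joint values, with a gap larger than the spread within either group. Exo1, an exonuclease of mismatch repair and resection, had 6.32, 6.01 and 6.02 in control and 7.74, 7.63 and 7.80 with both. Its 3.04-fold rise (1.61 ± 0.11, adjusted p = 0.00096) was the largest of the list on these values. The authors' deposited log2 values gave smaller rises, 0.51 for Exo1, 0.57 for Orc1 and 0.86 for Pole. Pclaf, a PCNA-binding factor, rose from 8.76, 8.63 and 8.79 to 10.17, 9.91 and 10.13 (1.35 ± 0.10). The licensing factors Cdt1 and Cdc6, which load the helicase at origins, rose by 1.31 ± 0.24 and 1.22 ± 0.09.

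Other members spanned the replication machinery. All 6 subunits of the MCM2-7 helicase that were named in the list rose, from Mcm7 at 0.51 to Mcm3 at 1.11 ± 0.12, and Mcm3 had 9.002, 8.71 and 8.72 in control against 10.08, 9.79 and 9.89 with both treatments. The GINS subunit Gins1, which activates the helicase, rose by 1.07, the chromatin assembly subunit Chaf1b by 1.10, the histone chaperone Asf1b by 1.16 and the ribonucleotide reductase subunit Rrm2, which supplies deoxynucleotides, by 0.78. Pcna, the sliding clamp, had 12.81, 12.80 and 12.74 in control and rose by 0.51 to 13.34, 13.22 and 13.33. Without both control A and betaine + UVB C, 29 of the 40 rose with a median of 0.71, and over all left-out arrays between 23 and 34 rose. Cdt1 lost its call without control C or without any 1 of the betaine + UVB arrays, with adjusted p up to 0.080. In bulk RNA, more cells in S phase and more of each transcript per cell cannot be told apart.

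Promoters of 4 replication genes are shown because the genes rose together and these are the replication genes with the largest rises whose promoter holds an E2F site. Each is the 250 bases before the RefSeq transcript start (GRCr8 assembly), written 5′ to 3′ along the gene, and capitals mark matches to TTTCCCGC, TTTCGCGC, TTTGCCGC or TTTGGCGC on either strand. The positions are chr8:75315467-75315716 (plus strand) for Pclaf, chr3:160184670-160184919 (plus strand) for Gins1, chr13:42404353-42404602 (minus strand) for Mcm6 and chr19:13488563-13488812 (plus strand) for Mcm5.
Pclaf: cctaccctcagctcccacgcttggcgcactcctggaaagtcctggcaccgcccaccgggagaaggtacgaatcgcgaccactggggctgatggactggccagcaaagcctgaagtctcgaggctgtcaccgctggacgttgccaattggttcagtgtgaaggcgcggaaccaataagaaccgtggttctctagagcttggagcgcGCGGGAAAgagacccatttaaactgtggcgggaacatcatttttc
Gins1: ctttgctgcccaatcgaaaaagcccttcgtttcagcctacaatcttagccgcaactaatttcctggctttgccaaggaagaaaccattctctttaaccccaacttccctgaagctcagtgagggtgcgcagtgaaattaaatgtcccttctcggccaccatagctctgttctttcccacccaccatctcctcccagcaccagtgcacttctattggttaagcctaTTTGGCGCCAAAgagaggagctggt
Mcm6: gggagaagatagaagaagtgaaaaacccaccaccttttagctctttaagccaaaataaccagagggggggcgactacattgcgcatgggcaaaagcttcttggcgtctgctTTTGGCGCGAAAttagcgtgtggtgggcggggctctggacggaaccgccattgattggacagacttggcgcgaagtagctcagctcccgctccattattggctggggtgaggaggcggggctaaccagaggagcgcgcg
Mcm5: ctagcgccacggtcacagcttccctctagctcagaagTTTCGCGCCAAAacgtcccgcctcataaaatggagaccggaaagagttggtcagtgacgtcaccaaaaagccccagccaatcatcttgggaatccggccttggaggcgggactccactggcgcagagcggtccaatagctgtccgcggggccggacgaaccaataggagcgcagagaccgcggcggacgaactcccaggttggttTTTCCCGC
Pclaf holds 1 match, Gins1 and Mcm6 hold 2 each and Mcm5 holds 3. In Gins1, in Mcm6 and at the far end of Mcm5, a match on each strand overlaps the other by 4 bases, which gives the longer capital runs. Gins1 had 7.92, 7.92 and 7.84 in control and 8.98, 8.82 and 9.09 with both treatments, Mcm6 had 10.32, 9.97 and 10.19 against 11.07, 11.16 and 11.19, and Mcm5 had 8.14, 7.95 and 8.03 against 8.98, 8.82 and 8.71. All 3 genes were higher on every treated array than on any control array.

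Across the RefSeq promoter table, 1.83 percent of 24206 promoters hold such an E2F match, and so do 3.3 percent of the 7024 tested genes with an entry. The share was 12.1 percent among genes called higher (27 of 224 with an entry), 2.97 percent among genes called lower (6 of 202) and 26.5 percent in the replication list (9 of 34). CCAAT, searched on both strands, was in 36.2 percent of the tested genes' promoters, 54.5 percent of those called higher and 36.1 percent of those called lower. Mitosis genes held it most often, at 75 percent (24 of 32), and held the CHR element TTTGAA in 43.8 percent against 10.3 percent of the tested genes. The AP-1 site TGACTCA was in 3.12 percent of promoters of genes called higher and 3.35 percent of the tested genes' promoters. These are counts of letters in a window, with no test, and they show no binding.

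Mitosis genes rose less: 15 of 39 tested rose and 0 fell, with a median of 0.44, and all 39 had a change above 0. The share called was 38.5 percent, against 6.28 percent over all genes. The kinetochore subunit Spc24 had 9.76, 9.40 and 9.70 in control and 10.70, 10.58 and 10.74 with both treatments (1.05 ± 0.11, adjusted p = 0.0027). Ttk, the checkpoint kinase MPS1, rose by 0.87 ± 0.12, Foxm1, a transcription factor of G2 and M genes, by 0.82 ± 0.11, and Cdk1, the kinase that drives mitotic entry, by 0.81 ± 0.12. The proliferation marker Mki67 had 7.73, 7.82 and 7.80 in control and 8.30, 8.24 and 8.13 with both, a small rise of 0.44 ± 0.08 (adjusted p = 0.024). Outside the list Kntc1, a kinetochore protein that recruits dynein, rose by 1.39 ± 0.11, and Cenpk, of the inner kinetochore, by 1.22 ± 0.10. Without both control A and betaine + UVB C, 9 of the 39 rose, and Mki67 lost its call there and without control B, control C or any 1 betaine + UVB array (adjusted p up to 0.11).

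Among 17 genes of G1 to S control 5 rose and 0 fell, 29.4 percent called against 6.28 percent over all genes, although the list median was 0.065. E2f8, an atypical repressive E2F, had 7.71, 7.58 and 7.72 in control and 8.87, 8.54 and 8.90 with both treatments (1.10 ± 0.11, adjusted p = 0.0025). E2f1, which activates S phase genes, rose by 0.59 ± 0.09, and the S phase cyclin Ccne2 by 0.68 ± 0.10. Myc, a growth factor-responsive transcription factor, rose by 0.66 ± 0.10 and Cdc25a, the phosphatase that activates the S phase kinases, by 0.53 (adjusted p = 0.042). Mybl1, a MYB family transcription factor outside the list, rose by 1.36 ± 0.14 and Dscc1, which helps load the clamp and establish cohesion, by 1.33 ± 0.12. The authors' deposited log2 values gave Ccne2 a change of 0.16 and no call (adjusted p = 0.055).

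Of 16 tested targets of p53, the transcription factor that responds to DNA damage, 0 were called higher and 1 was called lower in limma. That share, 6.25 percent, was close to the 6.28 percent over all genes. At an unadjusted p under 0.05 there were 5, 3 of them higher. Without control A, and also without both control A and betaine + UVB C, 1 was called in each direction. Cdkn1a, the p21 cell cycle inhibitor, had 7.23, 7.25 and 7.33 in control and 7.56, 6.97 and 7.16 with both treatments, overlapping groups with a change of −0.04 ± 0.15 (adjusted p = 0.90). Mdm2, the p53 ubiquitin ligase, had 11.19, 11.08 and 11.03 against 11.27, 11.44 and 11.47 (0.29 ± 0.09, adjusted p = 0.12). Pmaip1, the cell death gene NOXA, was the member that fell, being detected on all 3 control arrays and on none with both treatments. On these values it was at least 1.30-fold lower (adjusted p = 0.0078). The call was lost in the model of all 12 arrays (adjusted p = 0.090). It was also lost with the authors' deposited values, which gave a smaller fall of −0.16 log2 (adjusted p = 0.063). Of 25 UV damage repair genes, Xpa, which verifies lesions in nucleotide excision repair, fell from 9.91, 9.90 and 9.86 to 9.34, 9.44 and 9.36 (−0.51 ± 0.08, adjusted p = 0.0099), a call lost without betaine + UVB A or betaine + UVB C (adjusted p up to 0.060) and under the replicate block. The lesion sensors Ddb2 and Xpc had 0.13 and −0.09 without a call. Xpa was the only one of the 25 called, 4 percent against 6.28 percent over all genes.

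**Figure D2:**
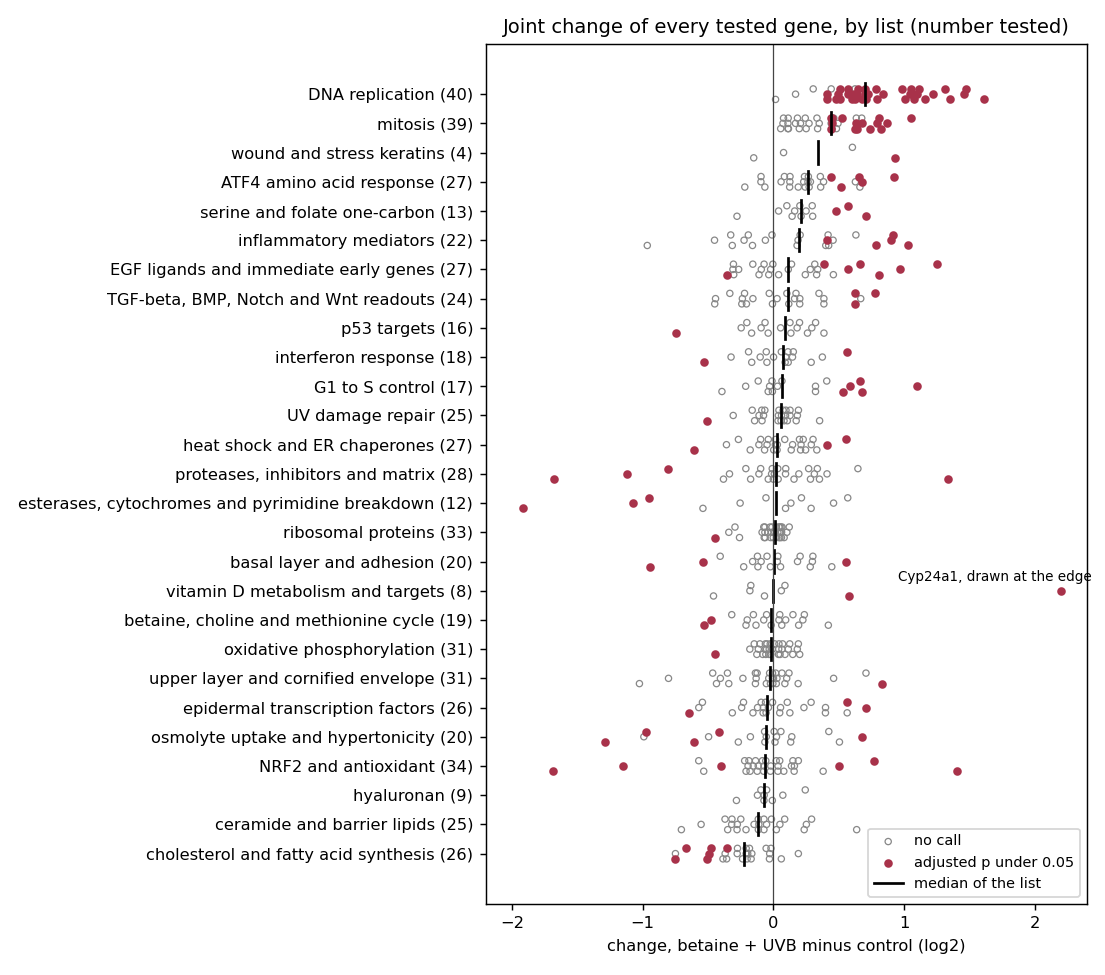
Change with betaine + UVB against control (log2, horizontal axis) of every tested gene, by list, with called genes as filled red points, the others as open circles and the list median as a black bar; the number after each list is its count of tested genes. DNA replication and mitosis have the highest medians, 0.70 and 0.44, while cholesterol and fatty acid synthesis has the lowest, −0.22; Cyp24a1, at 7.02, is drawn at the right edge.

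Of 20 osmolyte and hypertonicity genes tested 4 fell and 1 rose, 25 percent called against 6.28 percent over all genes. The list median was −0.061. Cells take up or make organic osmolytes when the medium is hypertonic, and betaine is itself such an osmolyte. Slc5a3, the sodium-coupled inositol transporter, had 11.38, 11.30 and 11.12 in control and 9.96, 9.88 and 10.09 with both treatments, a 2.44-fold fall (−1.29 ± 0.10, adjusted p = 0.0010). Fxyd2, which encodes the sodium pump's regulatory gamma subunit, had 12.17, 12.25 and 12.06 against 11.21, 11.17 and 11.17 (−0.98 ± 0.08, adjusted p = 0.0014), and its other probe gave −1.14. In both genes every treated array sat below every control array by more than the spread within a group. Of the others called, Hspa4l, an osmotic stress-inducible chaperone, fell by 0.61 ± 0.14, Sgk1, a kinase that regulates ion transport, fell by 0.41, and Slc7a5, a subunit of the large neutral amino acid transporter, rose by 0.68 ± 0.12.

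The taurine transporter Slc6a6 had −0.50 ± 0.12, with arrays that did not overlap but an adjusted p of 0.053, and aldose reductase Akr1b1, which makes sorbitol, had −0.18 ± 0.08 (0.25). Slc6a12, the betaine transporter, was detected on none of the 12 arrays and was not tested. Ranbp3l, a relative of the nuclear export cofactor RanBP3, had the largest fall of all genes. It had 13.33, 13.12 and 12.87 in control and 10.84, 10.97 and 11.08 with both treatments, a 4.42-fold fall (−2.14 ± 0.13, adjusted p = 0.00064). The groups did not overlap, and the gene was detected on all 6 arrays. Hspa4l lost its call without any 1 array other than control A (adjusted p up to 0.15).

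In the betaine, choline and methionine cycle 2 of 19 genes fell and 0 rose. Pemt, which methylates phosphatidylethanolamine to make choline lipid, had −0.48 ± 0.10 (adjusted p = 0.030), and Ahcyl1, a relative of the enzyme that cleaves S-adenosylhomocysteine, −0.53 ± 0.11 (0.032). Without both control A and betaine + UVB C, 0 of the 19 were called. Bhmt, which uses betaine to remethylate homocysteine, had 6.11, 5.91 and 6.03 in control and 5.95, 6.18 and 6.12 with both (0.06 ± 0.10, adjusted p = 0.75). Of 13 serine and folate genes 3 rose, 23.1 percent called. They included Tyms, thymidylate synthase, which is also in the replication list (0.57 ± 0.12), and Psph, the last enzyme of serine synthesis (0.48 ± 0.11). Tyms and Psph lost their calls without both control A and betaine + UVB C, where 1 of the 13 was called.

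Amino acid response genes under the transcription factor ATF4 gave 5 rises and 0 falls among 27, with a median of 0.26. The share called was 18.5 percent, against 6.28 percent over all genes, and the change was above 0 in 23 of the 27. Slc7a1, the cationic amino acid transporter for arginine and lysine, had 6.83, 6.99 and 6.93 in control and 7.80, 7.82 and 7.90 with both treatments (0.92 ± 0.08, adjusted p = 0.0015). The glutamine transporter Slc1a5 rose by 0.65 ± 0.12, the transcription factor Atf5 by 0.51 ± 0.08 and asparagine synthetase Asns by 0.44 (adjusted p = 0.017). The number of rises was 1 without betaine + UVB A, 2 without betaine + UVB C, 3 without control C or betaine + UVB B, and 3 without both control A and betaine + UVB C. Slc1a5 and Slc7a5 each failed the threshold when certain single arrays were dropped (adjusted p as high as 0.086).

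In the list of EGF ligands and immediate early genes, 6 of 27 members were higher and 1 was lower. That is 25.9 percent called, against 6.28 percent over all genes. Immediate early genes respond within minutes to growth factor and stress signals. Fos, an AP-1 subunit, had 7.10, 6.75 and 7.15 in control and 8.24, 8.33 and 8.19 with both treatments, a 2.38-fold rise (1.25 ± 0.12, adjusted p = 0.0018). Egr1, a zinc finger factor, had 10.67, 10.93 and 10.90 against 11.81, 11.75 and 11.86 (0.97 ± 0.10, adjusted p = 0.0023). In both genes the treated values lay close together and above every control. The survival gene Ier3 rose by 0.80 ± 0.08, the EGF signal inhibitor Spry2 by 0.57 and the AP-1 subunit Junb by 0.38, besides Myc. Dusp1, a phosphatase that switches off stress kinases, fell by 0.35 (adjusted p = 0.037). The list median was 0.11.

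Of 22 inflammatory mediators 5 rose and 0 fell, 22.7 percent called against 6.28 percent over all genes, with a median of 0.20. Ptgs2, the inducible cyclooxygenase that starts prostaglandin synthesis, had 8.25, 8.18 and 7.76 in control and 9.18, 8.80 and 8.96 with both treatments (0.91 ± 0.15, adjusted p = 0.014). The neutrophil chemokine Cxcl1 rose by 0.90 ± 0.17, the monocyte chemokine Ccl2 by 0.78 ± 0.17 and the T cell chemokine Ccl5, detected on 1 of the 3 control arrays, by 0.41. Cxcl10, an interferon-induced chemokine, was detected on no control array and on all 3 with both treatments. On these values it was at least 1.45-fold higher (adjusted p = 0.0054), while the authors' deposited log2 values gave a smaller rise, 0.22. Il1a, the alarmin interleukin 1 alpha, overlapped between the groups, with 8.82, 10.18 and 9.89 in control and 10.56, 10.29 and 9.93 with both (0.63 ± 0.33, adjusted p = 0.31). Its control A value lay more than 1 log2 below the other controls, and the overlap came from its betaine + UVB C value. Over the arrays left out in turn the count of rises ran from 1 to 6, and Ccl2 and Cxcl1 lost their calls in the model of all 12 arrays (adjusted p = 0.23 and 0.12).

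Interferon response genes showed little: of 18 tested, the guanylate-binding protein Gbp2 rose (0.56 ± 0.12, adjusted p = 0.039) and the signalling factor Stat2 fell (−0.53 ± 0.12, 0.043), and neither was called without both control A and betaine + UVB C. The interferon list had 11.1 percent called, against 6.28 percent over all genes. In the list of TGF-beta, BMP, Notch and Wnt readouts 3 of 24 rose and 0 fell, 12.5 percent called. They were the activin antagonist Fst, with 9.52, 9.49 and 9.37 in control and 10.11, 10.31 and 10.28 with both treatments (0.77 ± 0.09, adjusted p = 0.0038), and the BMP-induced inhibitors of differentiation Id1 (0.63 ± 0.10) and Id3 (0.62 ± 0.09). The treated values of Fst all lay above its controls by at least the spread within a group. Id1 lost its call in the model of all 12 arrays (adjusted p = 0.063). It also did so without control C, betaine + UVB A or betaine + UVB B.

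Genes of the upper layers and the cornified envelope, the protein shell of the outermost cells, had 1 rise among 31 and a median of −0.023. The share called was 3.23 percent, against 6.28 percent over all genes. The rise was Krt2, a keratin of the upper suprabasal layers, with 7.03, 7.75 and 7.36 in control and 8.20, 8.41 and 8.001 with both treatments (0.83 ± 0.18, adjusted p = 0.040). It was not called in the model of all 12 arrays (adjusted p = 0.17), with median scaling, or without control C or any 1 betaine + UVB array. Krt10, the main keratin of the suprabasal layers, did not separate the groups, at 14.85, 14.92 and 14.95 against 14.91, 14.90 and 14.89 (−0.01 ± 0.08). Without control A, whose signals for this list were the lowest, 5 of the 31 were called lower and 1 higher, and without both control A and betaine + UVB C 1 was called in each direction. The part that these 2 arrays have in the list's values was not tested further.

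In the basal layer list, of genes that anchor cells to the basement membrane, 2 of 20 fell and 1 rose. That is 15 percent called, against 6.28 percent over all genes. Itga2, the collagen-binding integrin alpha 2, had 8.23, 8.16 and 8.26 in control and 7.33, 7.15 and 7.35 with both treatments (−0.94 ± 0.09, adjusted p = 0.0018), a clean separation. Krt15, a keratin of basal and hair follicle cells, fell by 0.54 ± 0.12 and the laminin chain Lama5 rose by 0.55 ± 0.13 (adjusted p = 0.048). Of 4 wound and stress keratins Krt7, a simple epithelial keratin, rose by 0.93 ± 0.11 (adjusted p = 0.0034). Krt16, the wound-induced keratin, had 11.26, 11.97 and 12.19 in control and 12.91, 12.38 and 11.94 with both, overlapping groups with a change of 0.60 ± 0.29 (adjusted p = 0.27). That overlap came from betaine + UVB C. Lama5 and Krt15 failed the threshold when most single arrays were dropped, with an adjusted p as high as 0.17.

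Among 26 epidermal transcription factors 2 rose and 1 fell, with a median of −0.047. The share called was 11.5 percent, against 6.28 percent over all genes. Maf, a leucine zipper factor of late keratinocyte differentiation, had 11.52, 11.52 and 11.26 in control and 11.88, 11.94 and 12.16 with both treatments. Its rise was 0.56 ± 0.11 at its brightest probe, with 0.08 at the other. Elf3, an epithelial ETS factor, had 7.37, 7.52 and 7.54 against 6.94, 6.97 and 6.58 and fell by 0.64 ± 0.12. Neither gene's groups overlapped. Elf3 lost its call without control B, control C, betaine + UVB A or betaine + UVB C (adjusted p up to 0.084). Maf lost its call without any 1 array other than control A (up to 0.11). Maf was not called when probes were averaged, and without both control A and betaine + UVB C 1 of the 26 was called higher and 3 lower.

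Cholesterol and fatty acid synthesis was the list with the lowest median, −0.22: 6 of 26 fell, 0 rose, and 2 had a change above 0. The share called was 23.1 percent, against 6.28 percent over all genes. The acetyl-CoA synthetase Acss2 had 9.06, 9.59 and 9.58 in control and 8.75, 8.66 and 8.54 with both treatments (−0.76 ± 0.15, adjusted p = 0.027). The sterol demethylase Cyp51 fell by 0.67 ± 0.14, and the mevalonate pathway enzymes Mvd and Pmvk fell by 0.50 ± 0.09 and 0.50 ± 0.11. Fdps, which makes farnesyl diphosphate, fell by 0.47, and Ebp, a sterol isomerase, fell by 0.36. The calls depended on the arrays: 0 were called without control C, betaine + UVB B or betaine + UVB C, 1 without control B or betaine + UVB A, 8 without control A and 4 without both control A and betaine + UVB C. Of 25 ceramide and barrier lipid genes 0 were called in limma, with 3 at an unadjusted p under 0.05 and a median of −0.12. Without control A 2 of them were called higher and 3 lower, and without both control A and betaine + UVB C 1 higher and 2 lower. Of 9 hyaluronan genes 0 were called, with 1 at an unadjusted p under 0.05; the synthase Has2 had −0.07 ± 0.15, and Has3 was detected on none of the 12 arrays.

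Antioxidant and detoxifying genes moved in both directions, 3 up and 3 down among 34, with a median of −0.066. The share called was 17.6 percent, against 6.28 percent over all genes. Mt1, a metal-binding metallothionein, had 10.72, 10.37 and 10.78 in control and between 11.99 and 12.09 on the 3 arrays with both treatments, a 2.64-fold rise (1.40 ± 0.12, adjusted p = 0.0014). Gclc, the catalytic subunit of the enzyme that limits glutathione synthesis, rose from 11.46, 11.29 and 11.46 to 12.13, 12.23 and 12.16 (0.77 ± 0.09, adjusted p = 0.0033). Glutathione transferases of the alpha class went the other way: Gsta4 had 7.54, 7.42 and 7.33 in control and 6.37, 6.02 and 6.44 with both (−1.15 ± 0.13, adjusted p = 0.0030). Gsta2 fell by 1.69 ± 0.33 and Gsta5, outside the list, by 1.39 ± 0.23, both with a low value on control A (6.95 against 8.06 and 8.19 for Gsta2). Gsta2 and Gsta5 are close copies of each other, so a probe may catch both, and their values are uncertain. Gstt1 fell by 0.40 and Gstm1 rose by 0.50. Gsta2 was not called with the authors' deposited values (−0.56, adjusted p = 0.055) or without any 1 array other than control A.

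Of 28 proteases, inhibitors and matrix genes 1 rose and 3 fell, 14.3 percent called against 6.28 percent over all genes. Mmp3, the matrix metalloprotease stromelysin 1, had 8.72, 9.06 and 8.68 in control and 9.85, 10.33 and 10.28 with both treatments (1.33 ± 0.16, adjusted p = 0.0037). Mmp10, stromelysin 2, fell, from 7.35, 8.51 and 7.94 to 6.78, 6.93 and 6.73 (−1.12 ± 0.25, adjusted p = 0.042). The related proteases moved in opposite directions on these values, but the fall of Mmp10 often lost its call. It did so in the model of all 12 arrays (adjusted p = 0.050) and with the authors' deposited values (0.080). It also did so without any 1 array other than control A (up to 0.14). Serpina3n, a serine protease inhibitor, had 8.55, 8.09 and 8.42 against 6.91, 6.64 and 6.48, a 3.2-fold fall (−1.68 ± 0.15, adjusted p = 0.0015). Adam10, a sheddase, fell by 0.81 ± 0.17 at its brightest probe, with −0.11 at the other, and was not called in the model of all 12 arrays (adjusted p = 0.17) or without control B, control C, betaine + UVB A or betaine + UVB C.

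Esterases, cytochromes P450 and related enzymes gave 3 falls among 12, 25 percent called against 6.28 percent over all genes. Aadac, an esterase of the endoplasmic reticulum, was detected on all 3 control arrays and on none with both treatments. On these values it was at least 2.29-fold lower (adjusted p = 0.0070), while the authors' deposited log2 values gave a smaller fall, −0.49. Aldh1a1, which makes retinoic acid, had 8.15, 8.25 and 8.19 in control and 7.24, 7.13 and 7.01 with both (−1.07 ± 0.09, adjusted p = 0.0014). Cyp1a1, the aryl hydrocarbon-induced P450, had 9.24, 9.49 and 9.36 against 8.28, 8.42 and 8.52 (−0.96 ± 0.10, adjusted p = 0.0028). In both genes all treated arrays lay below every control.

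The other large falls were of diverse function. Cdh13, the lipid-anchored T-cadherin, had 11.77, 11.55 and 11.53 in control and 10.15, 10.28 and 10.34 with both treatments (−1.37 ± 0.10, adjusted p = 0.00096). Cdc42ep2, a Cdc42 effector that shapes actin, had 8.74, 8.72 and 8.68 against 6.95, 7.25 and 6.68 (−1.75 ± 0.14, adjusted p = 0.0010). Both were detected on all 6 arrays with groups far apart. C3h11orf96 (−1.46 ± 0.09), Padi1, a peptidylarginine deiminase (−1.22 ± 0.16), and Ceacam4 (−1.22 ± 0.18) were also detected on all 6, with groups that did not overlap. Those of Ceacam4 lay closer, at 8.49, 7.94 and 8.35 against 7.33, 7.01 and 6.79. C3h11orf96 was near the lowest detected signals with both treatments, and the authors' deposited values gave it −0.40. Cdk14, a cyclin Y-dependent kinase, fell by 1.67 ± 0.13 and was detected on 1 betaine + UVB array. Prkg1, the cGMP-dependent kinase, also detected on 1, fell by 1.76 ± 0.20 with −0.65 at its other probe, and Lypd2, detected on 2, fell by 1.22 ± 0.16. Car6, the secreted carbonic anhydrase, had 7.76, 9.35 and 8.87 in control against 6.84, 7.12 and 6.84, and its change of −1.73 ± 0.35 lost its call with the authors' deposited values (adjusted p = 0.063) and without any 1 array other than control A. On the other side Gchfr, the feedback regulator of GTP cyclohydrolase 1, had 6.66, 6.82 and 7.07 against 8.31, 8.47 and 8.41, a rise of 1.55 ± 0.12 (adjusted p = 0.00096).

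Lists of general upkeep had medians near 0. The share called was 11.1 percent for chaperones, 3.23 percent for oxidative phosphorylation and 3.03 percent for ribosomal proteins, against 6.28 percent over all genes. Of 27 heat shock and endoplasmic reticulum chaperones Hsp90aa1 (0.56 ± 0.12) and Hsp90b1 (0.41 ± 0.09) rose and Hspa4l fell, with a median of 0.029, and without both control A and betaine + UVB C neither rise was called. Of 31 oxidative phosphorylation subunits Cox8b, a cytochrome oxidase subunit, fell (−0.45 ± 0.10, adjusted p = 0.041; not called with the authors' deposited values, 0.21), and of 33 ribosomal proteins Rpl15 fell (−0.45 ± 0.08, adjusted p = 0.018). Their list medians were −0.022 and 0.010. Cox8b lost its call without any 1 array other than control A (adjusted p up to 0.14). Rpl15 did so without control C or any 1 betaine + UVB array (up to 0.090). Of the marker genes of other cell types Fbln1, fibulin 1, of the fibroblast list rose by 0.45 ± 0.09 (adjusted p = 0.024), but was not called in the model of all 12 arrays (0.067), without control B, control C, betaine + UVB A or betaine + UVB C (up to 0.10), or without both control A and betaine + UVB C. The fibroblast genes tested, Fbln1 and Col3a1, averaged 7.16 to 7.38 on the control arrays and 7.12 to 7.59 on the betaine + UVB arrays, and the 6 undetected fibroblast markers are named above.

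Whether the joint change equals the sum of the single changes was asked with the departure, the joint change minus the betaine change minus the UVB change, from a model of all 12 arrays. On the log2 scale a departure of 0 means that fold changes multiply. The 3 changes share the control arrays, so they are given side by side and not correlated. No departure passed: 0 of 10356 genes, 0 percent, were called in limma, and the smallest adjusted p was 0.39. At an unadjusted p under 0.05 there were 837 genes, 8.08 percent, 437 with a joint change above the sum and 400 below. That number was 560 without control A, 513 without betaine + UVB C and 379 without both, again with 0 called. It was 550 without betaine B and 1359 without betaine C. The median departure was 0.023 over all genes, 0.14 over the genes called higher and −0.0072 over those called lower. A departure is less precise than a joint change, with a median SE of 0.17 against 0.11, so a p that misses the threshold does not show that the changes add up. For 299 of the 650 called genes (46 percent; 59.5 percent of all tested) the 95 percent interval of the departure lay within 1.5-fold either way, and for 70 it reached past 2-fold.

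**Figure D3:**
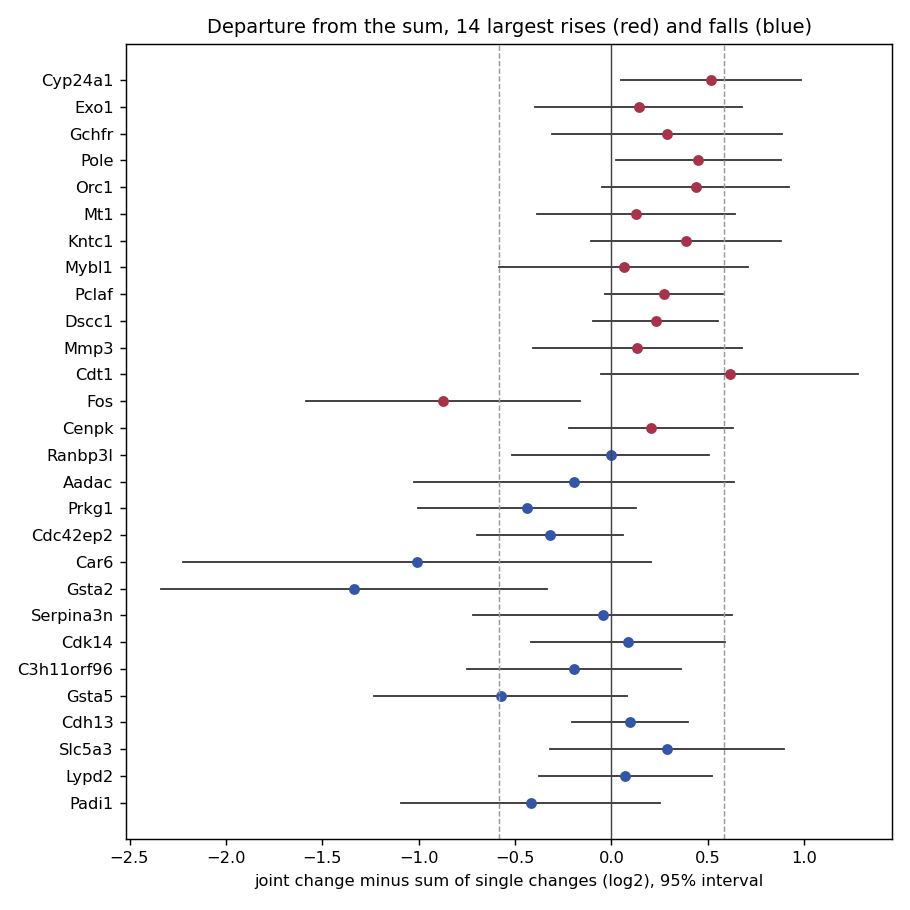
Departure of the joint change from the sum of the single changes (log2, horizontal axis) with its 95% interval for the 14 largest rises (red points) and the 14 largest falls (blue points) among named genes; dashed lines mark 1.5-fold either way. The interval includes 0 for most of the 28 genes, and the exceptions are Cyp24a1, Pole, Fos and Gsta2.

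For several of the largest changes the sum was met closely. The fall of Ranbp3l was −1.74 ± 0.17 with betaine alone and −0.40 ± 0.17 with UVB alone, a sum of −2.14 beside a joint −2.14 (interval of the departure −0.51 to 0.51). Cdh13 had −0.73 ± 0.10 with each treatment alone, a sum of −1.46 and a joint −1.37 (−0.21 to 0.40). Fxyd2 had −1.31 ± 0.09 with betaine and 0.21 ± 0.09 with UVB, a sum of −1.10 and a joint −0.98 (−0.16 to 0.40). These intervals exclude a departure of more than 1.5-fold. Serpina3n had −1.50 ± 0.22 with betaine and −0.13 ± 0.22 with UVB, a sum of −1.63 and a joint −1.68, with a wider interval of −0.72 to 0.63. For Cyp24a1 the joint 7.02 exceeded the sum of 6.50 by 0.52 (0.05 to 0.98), which counts the fitted betaine value of an undetected gene.

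Single changes of opposite sign were widest in 6 genes, chosen on those single changes and described without a test. Krt2 had 9.52, 9.93 and 8.61 with betaine alone and 5.89, 6.23 and 5.24 with UVB alone, changes of 1.98 ± 0.32 and −1.59 ± 0.32, and the joint cultures lay between them and above control. Cox8b had 1.05 ± 0.11 with betaine and −0.82 ± 0.11 with UVB, where it was undetected on all 3 arrays, and a joint −0.45, on the UVB side of the sum of 0.23. The carboxylesterase Ces1d had 0.84 ± 0.28, −1.54 ± 0.28 and a joint −0.54 ± 0.18 against a sum of −0.70. The peptide hormone gene Adm2, undetected with betaine alone, had −1.05 ± 0.16, 0.88 ± 0.16 and a joint 0.27 ± 0.17 against −0.17. The matricellular gene Ccn2, undetected with UVB alone, had 1.12 ± 0.31, −0.92 ± 0.31 and a joint 0.31 ± 0.25 against 0.20. Prl8a7, of the prolactin family, had 1.25 ± 0.37, −0.96 ± 0.37 and a joint −0.02 ± 0.35 against 0.30. In 4 of these 6 the joint change was not called, Krt2 and Cox8b being the exceptions.

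Single changes of the same sign were widest in another 6 genes, chosen in the same way. The 2 falls were Cdh13, given above, and Slc5a3. Slc5a3 had −0.85 ± 0.20 with betaine, on arrays at 10.235, 10.02 and 10.99, and −0.73 ± 0.20 with UVB. Its sum was −1.58 and its joint change −1.29. The interval of its departure, −0.32 to 0.90, is too wide to show that the changes add up. The 4 rises had joint changes below their sums. Since both single changes are taken from the same control arrays, choosing genes for wide same-sign single changes favours genes with extreme control values and so a joint change short of the sum. Fos had 0.89 ± 0.23 with betaine and 1.24 ± 0.23 with UVB, a sum of 2.12 and a joint 1.25, level with UVB alone (departure −0.87, interval −1.58 to −0.16). Klk7, a protease of the outer layer, had a sum of 2.09 and a joint 0.19 ± 0.57, Rnf225 a sum of 1.75 and a joint 0.52 ± 0.35, and Plaat3, a phospholipase, a sum of 1.56 and a joint 0.53 ± 0.21. These 3 had their lowest control value on array A, 9.11 against 10.89 and 11.02 for Klk7, and Klk7 also had its lowest joint value on array C, 9.54 against 11.24 and 10.80.

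**Figure D4:**
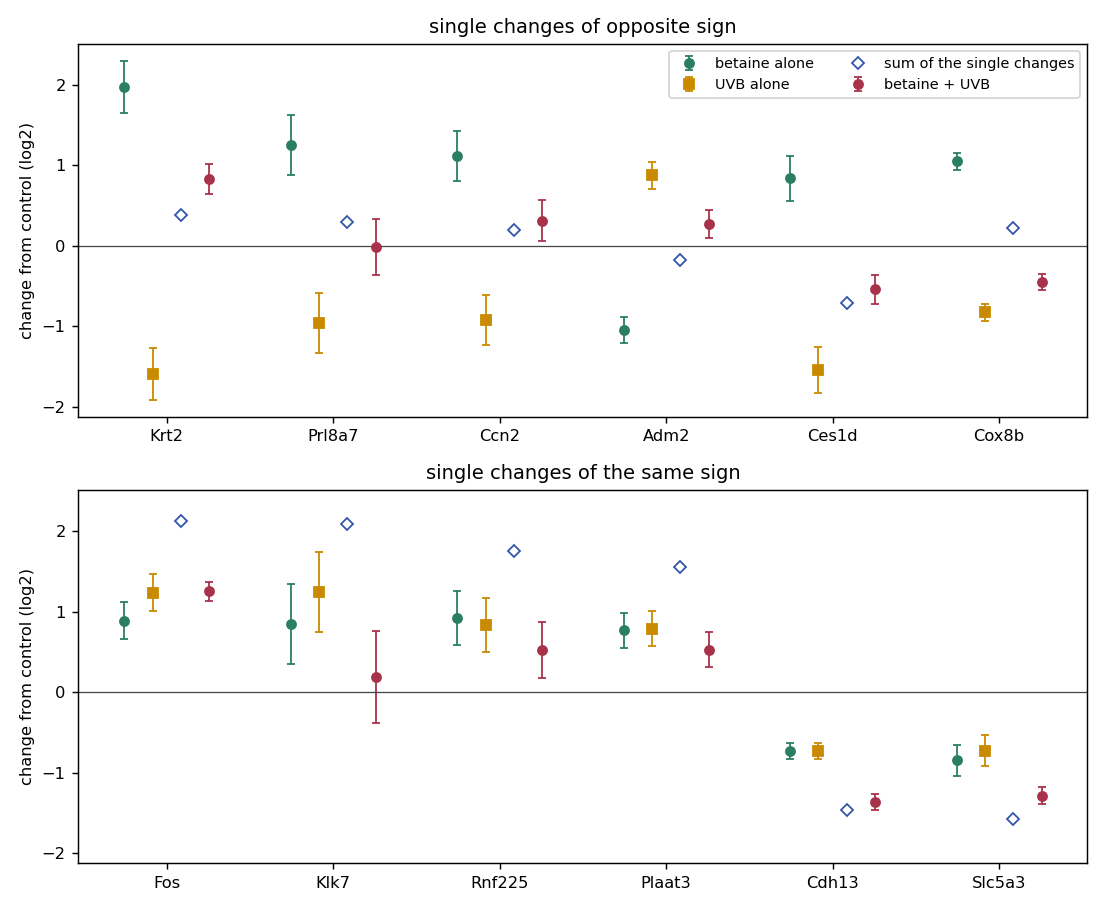
Change from control (log2, vertical axis) with betaine alone (green), UVB alone (amber) and both (red), with SE bars and 3 arrays per group, beside the sum of the single changes (open diamond), for the 6 genes of widest opposite and the 6 of widest same-sign single changes. The joint point of Krt2 lies between its single changes, and those of Fos, Klk7, Rnf225 and Plaat3 lie below the diamond.

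Over all genes 5674 of 10356 departures lay above 0, and the shares in the mitosis and replication lists were higher. In G1 to S control 11 of 17 lay above 0, with a median of 0.093 and 0 at an unadjusted p under 0.05. Mitosis genes had a median change of −0.44 with betaine alone and 0.45 with UVB alone and of 0.44 with both, so the joint level was close to that of UVB alone. Their median departure was 0.38, above 0 in 37 of 39, and 19 had an unadjusted p under 0.05 (18 of them above 0) with 0 called. Mki67, at 7.32, 7.46 and 6.88 with betaine alone and 8.27, 8.22 and 8.18 with UVB alone, had a departure of 0.57 (0.18 to 0.95). The mean of the list was 8.28, 8.08 and 8.26 on the control arrays, 7.78, 7.67 and 7.92 with betaine, 8.74, 8.68 and 8.68 with UVB and 8.69, 8.53 and 8.70 with both. Betaine alone thus lay below every control array, while both UVB groups lay above and overlapped each other. Without both control A and betaine + UVB C the median departure was 0.31 and 6 of the 39 had an unadjusted p under 0.05.

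DNA replication genes had a median change of −0.28 with betaine alone and 0.86 with UVB alone, and a median departure of 0.13, above 0 in 32 of 40 with 9 at an unadjusted p under 0.05. Mcm3 had −0.64 ± 0.11 and 1.19 ± 0.11, a sum of 0.54 and a joint 1.11, a departure of 0.57 (0.22 to 0.92, unadjusted p = 0.0038, adjusted p = 0.57 in limma). Pclaf had −0.52 ± 0.10, 1.59 ± 0.10 and a departure of 0.27 (−0.03 to 0.58). Without both control A and betaine + UVB C the median was 0.085, with 4 genes at an unadjusted p under 0.05. With arrays scaled by their medians in place of quantile normalization the median departure of all genes moved to 0.12, and the replication and mitosis medians were 0.25 and 0.49.

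**Figure D5:**
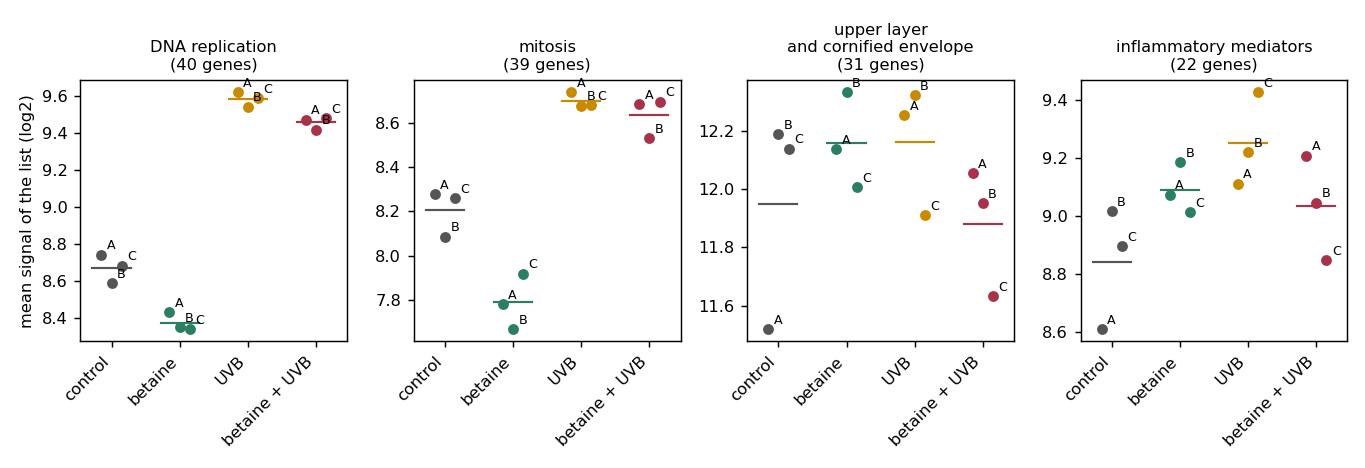
Mean signal (log2, vertical axis) of 4 gene lists on each of the 12 arrays, by group, with array letters and the group mean as a line; each panel has its own scale. In DNA replication and mitosis the betaine arrays lie lowest and both UVB groups highest, while in the upper layer list control A and betaine + UVB C lie below the other arrays.

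Upper layer genes went the other way, with a median departure of −0.37, above 0 in 5 of 31, and 7 at an unadjusted p under 0.05, 0 of them above 0. Without both control A and betaine + UVB C the median was −0.12 and 1 gene had an unadjusted p under 0.05. Inflammatory mediators had a median departure of −0.23 with 6 at an unadjusted p under 0.05, all below 0. Il1a had 0.58 ± 0.29 with betaine, 1.36 ± 0.29 with UVB and a departure of −1.31 (−2.22 to −0.41). The interleukin 36 family gene Il36a had 9.38, 11.12 and 10.87 in control and 9.96, 9.64 and 8.87 with both, a departure of −1.76 (−3.00 to −0.52). Both genes had their lowest control value on array A and their lowest joint value on array C. Their departures without these arrays are not given. For this list the median without both arrays was −0.21, with 4 genes at an unadjusted p under 0.05. In basal layer genes the median departure was 0.28, above 0 in 17 of 20, and it was 0.22 without both arrays.

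The 6 genes at the smallest adjusted p (0.39) are given as values only. Slc7a1 had −0.33 ± 0.11 with betaine, 0.43 ± 0.11 with UVB and 0.92 with both, a departure of 0.83 (0.50 to 1.16). Every joint array, at 7.80 to 7.90, was above every array with UVB alone, at 7.28 to 7.43. Tbc1d25, Eno3, a muscle enolase, Zfp775 and Sytl2 had departures of 0.69, 0.88, 0.82 and 0.63, and Krt36, a hair keratin, had −0.84. The signals of Tbc1d25, Eno3, Zfp775 and Krt36 were between 5.23 and 6.43 on all arrays, close to the lowest detected signals. With array weights 12 genes passed, among them Slc7a1, Tbc1d25, Eno3 and Zfp775.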

How the data were processed

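RNA of 12 cultures was hybridised to Illumina RatRef-12 arrays, 3 per group. The authors deposited, per the file headers, a bead signal intensity and a detection p-value per probe, not normalized, and separately processed values, on a log2 scale by their range; the submitters' processing notes name R 2.11 and limma, and the steps are not given in the sources used here. Intensities of all 12 arrays were background-corrected and quantile-normalized with neqc (limma 3.58.1, R 4.3.3; offset 16, background inferred from the detection p-values), and log2 values were used. Probes with a detection p under 0.05 on at least 3 of the 6 arrays were kept, 10650 of 22523, with the brightest probe per gene. The joint change was fitted on 6 arrays and the departure on 12, with lmFit and eBayes and Benjamini-Hochberg adjustment. Fits were tested on simulated data. The number of arrays limits the precision.

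Where a gene was undetected on every array of a group, "at least" folds set the other group's mean against the lowest detected signal. These bounds hold for the normalized values used here and not for the authors' deposited values. Names follow RefSeq (GRCr8), matched for 16911 probes by symbol, gene ID or synonym; 5495 kept the array's name and 117 had none.

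The members and lists were chosen with earlier results of these data known. Genes were named by rule: the 15 largest called rises and falls with a gene symbol and no overlap, the 4 called members of each list with the largest change, any called departure, 20 preset genes, and 6 genes each with the widest opposed and same-sign single changes. A few of the genes so chosen are not reported here. Further called members of the lists, Rrm2, Asf1b, Chaf1b and Pcna, the promoter genes, the repair sensors, Il36a, the markers and the genes at the smallest departure p were chosen after values were seen. Alternatives were another normalization or background, other filters, probe averaging, array weights, the authors' values, a replicate block and left-out arrays; leaving out both control A and betaine + UVB C was chosen after seeing the data.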

Additional observations from a re-analysis of the deposited data

Results flagged for a closer look

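Some genes outside those tested gave a signal in the cultures with a single treatment. With betaine alone 21 such genes were detected on all 3 arrays and lay above every control array, and with UVB alone 23 did. They were not among the genes tested because fewer than 3 of the 6 control and betaine + UVB arrays detected them, and no test was run on them.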

How the results depend on the processing

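The joint comparison called 650 genes, and between 542 and 836 under the other normalizations, filters and probe rules and in the model of all 12 arrays; array weights called 1362. With median scaling 291 genes were called higher and 545 lower (34.8 percent higher against 56.2). The sizes of changes depended on the processing too. The authors' deposited values gave smaller falls for Serpina3n (−0.70), Cdk14 (−0.43), Prkg1 (−0.46), Gsta4 (−0.36), Lypd2 (−0.29) and Cdc42ep2 (−0.82). They also gave smaller rises for Fos (0.54), Gchfr (0.66), Mybl1 (0.61), Foxm1 (0.28), Slc7a1 (0.36) and Krt7 (0.33). For Ranbp3l and Cdh13 they gave −2.18 and −1.28, near the falls given above. Leaving out 1 array gave 235 to 1207 calls: omitting control A gave 1207, B 389 and C 290, and omitting betaine + UVB A, B or C gave 235, 351 or 260. Of the 88 named genes with a called joint change, 49 kept the call in all settings run, 39 lost it in at least 1, 37 of them with an array left out, and 0 changed direction. The departure called 0 genes in the other settings run, with 379 (without both control A and betaine + UVB C) to 1470 (array weights) at an unadjusted p under 0.05, except with array weights, where 12 were called, 9 above 0 and 3 below.

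The letters A, B and C were also tried as a replicate block, which left 312 calls, 306 of them among the 650, and 0 departures. The letters were not taken as pairs: the deviations of control and betaine + UVB arrays of the same letter correlated at −0.35 (A), −0.02 (B) and −0.41 (C). Same-letter betaine and betaine + UVB arrays correlated at −0.05 (A), 0.31 (B) and 0.36 (C). Those of UVB and betaine + UVB correlated at 0.008 (A), 0.26 (B) and 0.19 (C). Whether the letters pair arrays is therefore less clear for the departure. With 3 arrays per group and signals near background for some genes, small changes could not be resolved, and the cause of the array effects was not tested.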
